A study of Homo sapiens with 4 samples.

Results

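The genes described here encode hnRNP proteins, SR proteins and the protein subunits of the U2 branch-point machinery of the spliceosome. They were chosen by symbol, as every protein-coding gene named HNRNP or SRSF, the TRA2 genes, and the SF3A, SF3B and U2AF subunits. The tables held 49 such genes among 25685 genes, of which 24 were HNRNP genes, 12 SRSF, 2 TRA2, 3 SF3A, 6 SF3B and 2 U2AF. Their values in RNA recovered with a tagged microRNA, miR-26a, were set against those in RNA recovered with the untagged form.

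DU-145 is an established human prostate cancer line. In the biotin group, cells received a mixture of miR-26a duplexes that carried biotin at the 3′ end and a thiouridine, a photo-crosslinkable base, at nucleotide 7 or 17. In the control group, cells received a miR-26a duplex with no biotin. Both groups thus carried added miR-26a, given at 60 nM 24 h after seeding. Both were irradiated at 365 nm with 2 J/cm2, and 15 µg of RNA per sample was incubated with streptavidin beads for 4 h. The series design gives this amount in µg and the extract protocol in mg, and µg is used here. Each group had 2 libraries, which the series design calls biological replicates. Tag and thiouridine were given together, so their effects cannot be told apart. The values are those of bead-recovered RNA, so a higher value can come from more RNA in the cell or from more of it recovered, and these cannot be told apart either.

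hnRNP proteins coat nascent transcripts and often favour exon skipping, whereas SR proteins bind exonic enhancers through RNA recognition motifs and recruit the spliceosome through their arginine- and serine-rich domains. The SF3A and SF3B complexes belong to the U2 snRNP, the particle that pairs with the branch point, and the U2AF heterodimer marks the 3′ splice site ahead of it. Many of these factors control the splicing of their own transcripts, in part through poison exons whose inclusion sends an mRNA to nonsense-mediated decay. A microRNA recognises its targets mainly through its seed, bases 2 to 8 from the 5′ end, which pairs with complementary sites in 3′ UTRs. The mature strand is shown because it is the bait of the pull-out, with the seed in capitals. RefSeq places it in MIR26A1 (GRCh38.p14, chr3:37969413-37969434, plus strand) and MIR26A2 (chr12:57824658-57824679, minus strand).
hsa-miR-26a-5p: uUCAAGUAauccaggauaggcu

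The depth of each library, estimated from the deposited coverage, was 17570000 and 23640000 mapped reads in the biotin group, against 16030000 and 17840000 in the control group. On a 1 kb transcript, 3 reads were worth 0.127 to 0.171 FPKM in the biotin libraries and 0.168 to 0.187 FPKM in the controls, where FPKM is fragments per kilobase of transcript per 1000000 mapped fragments. All 8 epithelial markers chosen for DU-145 were at 1 FPKM or more, with sums of 166 to 171 FPKM in the biotin group and 167 to 206 FPKM in the control group. Of the 5 blood, 4 fibroblast and 2 neuroendocrine markers none reached 1 FPKM in 2 libraries, and PTPRC, CD3E, HBB, DCN and CHGA were listed at 0. The blood sums were 0.0152 to 0.0829 FPKM in the biotin group and 0 in the control group, the fibroblast sums 0.204 to 0.376 FPKM with biotin and 0.148 to 0.211 FPKM in controls, and the neuroendocrine sums 0.0713 to 0.127 FPKM with biotin and 0.133 to 0.167 FPKM in controls.

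Most of the splicing factor genes were recovered at similar levels in both groups. A gene was tested if it reached 1 FPKM in at least 2 libraries, which 43 of the 49 did, and all 43 reached it in every library. limma was fitted to log2(FPKM + 1) of all 9940 tested genes, with p-values adjusted by the Benjamini-Hochberg method over all of them and a threshold of 0.05, two-sided. All fold changes are differences of means on that scale, biotin minus control, which understates the change of low genes, and are given with their standard error. SRSF11 and HNRNPAB rose in the biotin group, and SRSF3, HNRNPK, SF3A2, SF3B5 and SF3B6 fell, while 36 genes did not pass. The 2 that rose were 4.65% of those tested, against 13.1% of all genes, and the 5 that fell were 11.6%, against 9.33% of all genes. Calls in either direction covered 22.5% of all genes, so the splicing factors were not called more often than genes at large.

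The median log2 fold change was -0.06 over the 43 genes and -0.06 over all genes tested. The interquartile range of the fold changes was -0.30 to 0.11 for the splicing factors and -0.36 to 0.31 for all genes. Changes of less than 0.3 in either direction were seen in 26 of the 43, and changes of at least 1 in 3 (6.98%), against 1018 of all genes (10.2%). In 12 genes both biotin libraries lay above both controls (27.9%, against 29.4% of all genes), and in 17 both lay below (39.5%, against 37.7%). The groups overlapped in the other 14. With 2 libraries a group, an exact permutation test of a single gene cannot go below p = 0.333, so every call rests on the spread that limma pools over genes.

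**Figure D1:**
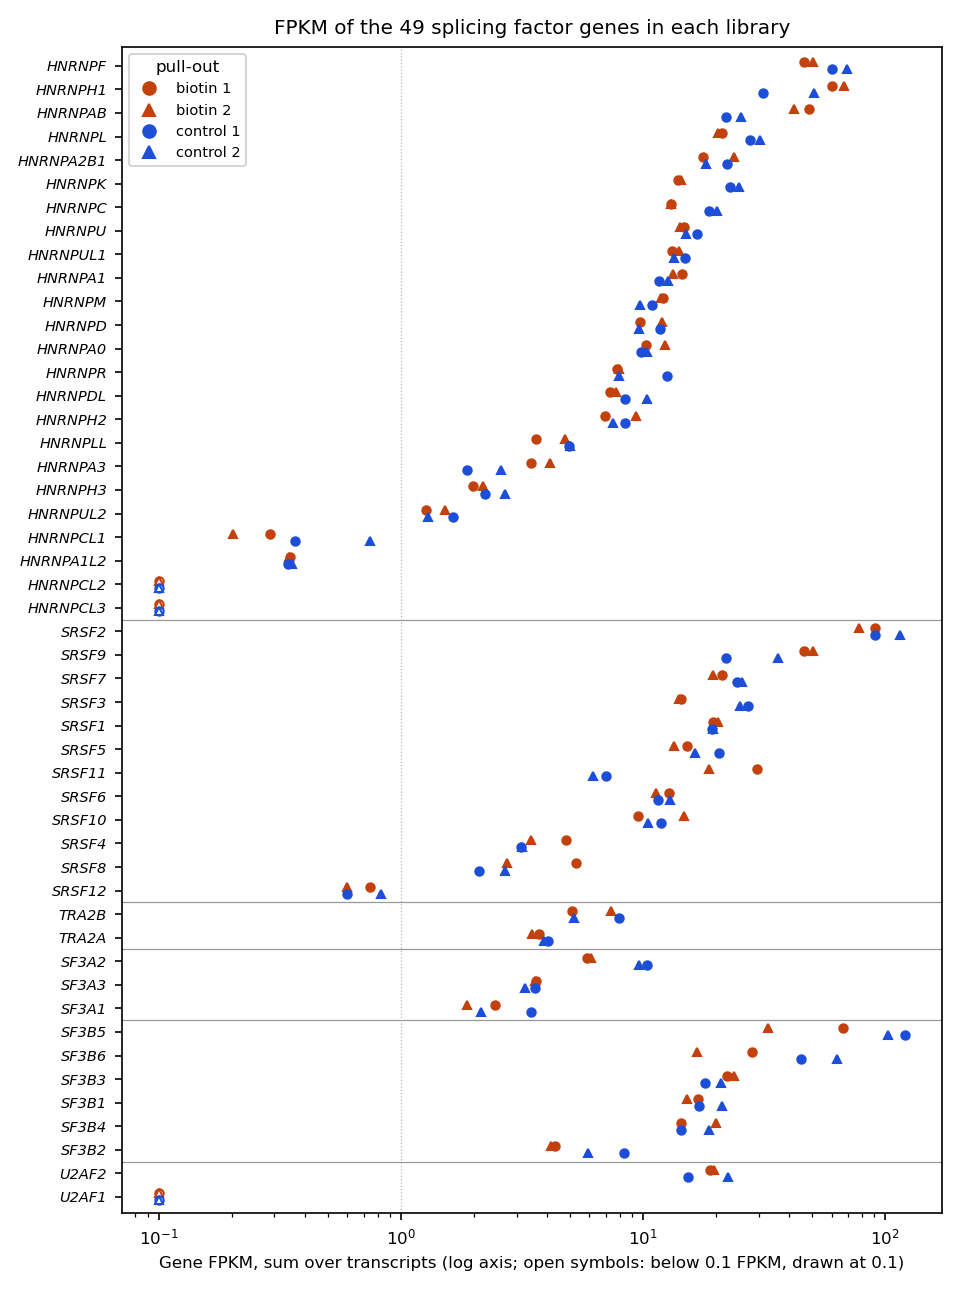
Gene FPKM (log axis) of the 49 splicing factor genes in the 2 biotin libraries (orange) and the 2 control libraries (blue), by family and by mean level. Biotin and control points lie close together for most genes. Both biotin points lie above both controls in 12 tested genes and below both in 17. These include the called SRSF11, HNRNPAB, SRSF3, HNRNPK, SF3A2, SF3B5 and SF3B6, and genes that did not pass, such as HNRNPH1 and SRSF9. Open symbols at the left edge stand for values below 0.1 FPKM, among them U2AF1.

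The summed FPKM of all 49 genes was 790.0 and 748.8 in the biotin libraries, against 828.8 and 900.9 in the control libraries. The HNRNP sum was 328.2 and 347.6 with biotin and 321.2 and 348.1 without it, and these overlapped. So did the SRSF sums, at 269.9 and 246.7 FPKM in the biotin group and 240.1 and 274.0 FPKM in the control group. The SF3B sum was lower in both biotin libraries, at 152.3 and 112.5 FPKM, against 222.7 and 232.3 FPKM in the controls. SF3B5 and SF3B6 carried this difference: the other 4 SF3B genes summed to 57.6 and 63.0 FPKM with biotin and to 57.7 and 66.8 FPKM in controls, which overlapped. SF3A summed to 11.91 and 11.56 FPKM with biotin and to 17.39 and 14.98 FPKM in the controls.

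Of 20 HNRNP genes tested, 1 rose (5.0%, against 13.1% of all genes), 1 fell (5.0%, against 9.33%) and 18 did not pass. Their fold changes were -0.72 to 0.91. The median of -0.05 turned to 0.01 under median-of-ratios scaling, 0.01 without biotin 1 and 0.04 without control 1. HNRNPAB, an RNA-binding protein of the hnRNP A/B group, had 48.5 and 42.0 FPKM in the biotin libraries and 21.9 and 25.4 FPKM in the control libraries. Both biotin values were well above both controls. It averaged 45.2 ± 4.58 FPKM with biotin and 23.7 ± 2.48 FPKM in controls (SD, n = 2 each), a log2 fold change of 0.91 ± 0.19 with a limma adjusted p of 0.0232. The gene lies at chr5:178204507-178211183 (hg38, the span of the deposited rows) and overlaps PHYKPL. PHYKPL had 4.53 and 4.30 FPKM with biotin and 5.20 and 5.49 FPKM in controls, and did not pass the test (log2 fold change -0.23, limma adjusted p = 0.275).

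HNRNPK, which binds C-rich RNA through KH domains, had 13.9 and 14.3 FPKM in the biotin libraries, against 22.9 and 25.0 FPKM in the controls. The biotin libraries were nearly equal and both below the controls. It averaged 14.1 ± 0.285 FPKM with biotin and 23.9 ± 1.47 FPKM in controls (SD, n = 2 each), and its log2 fold change was -0.72 ± 0.17 with a limma adjusted p of 0.0300. Neither HNRNPAB nor HNRNPK passed when any 1 library was left out, with adjusted p of 0.0679 to 0.120 for HNRNPAB and 0.104 to 0.131 for HNRNPK.

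HNRNPF and HNRNPH1, a closely related pair that binds G-rich RNA, had the highest levels of the family. HNRNPH1 had 60.0 and 67.9 FPKM with biotin, against 31.3 and 50.6 FPKM in controls, and its log2 fold change of 0.67 ± 0.27 did not pass (limma adjusted p = 0.118). That fold change was 0.33 without control 1 and 1.01 without control 2. HNRNPF had 46.4 and 50.5 FPKM with biotin, against 60.4 and 69.2 FPKM in controls, with a log2 fold change of -0.41 ± 0.19 (limma adjusted p = 0.164). The pair thus lay on opposite sides of 0, with no overlap between groups in either gene, and neither passed. The difference between the 2 genes was not tested.

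HNRNPA3, an A/B protein of low level here, had 3.45 and 4.11 FPKM with biotin and 1.88 and 2.59 FPKM in controls (log2 fold change 0.57 ± 0.17, limma adjusted p = 0.0591). HNRNPC, which binds U tracts, had 13.1 and 13.0 FPKM with biotin, against 18.7 and 20.2 FPKM in controls (-0.54 ± 0.16, limma adjusted p = 0.0608). HNRNPL, which binds CA repeats, had 21.3 and 20.3 FPKM with biotin and 27.6 and 30.4 FPKM in controls (-0.46 ± 0.17, limma adjusted p = 0.103). These groups did not overlap, and all 3 genes missed the threshold. HNRNPC and HNRNPL are named after their values were seen, for an unadjusted p below 0.05. HNRNPA1, the classical antagonist of SR proteins, had 14.5 and 13.2 FPKM with biotin and 11.6 and 12.6 FPKM in controls and did not pass (log2 fold change 0.18). It has many processed pseudogenes, and how reads shared with them were assigned is not given in the sources used here.

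SRSF genes held the largest increase of the 43. SRSF11, an SR-related protein known to bind U2AF2, had 29.5 and 18.7 FPKM in the biotin libraries, against 7.05 and 6.22 FPKM in the controls. The biotin replicates differed from each other, and even the lower one was far above both controls. It averaged 24.1 ± 7.63 FPKM with biotin and 6.63 ± 0.583 FPKM in controls (SD, n = 2 each), a 3.63-fold ratio of means. The log2 fold change was 1.69 ± 0.24 with a limma adjusted p of 0.00717, and 271 of the 9940 genes (2.73%) rose at least as far. SRSF11 kept its call without biotin 1 (adjusted p = 0.0277) or biotin 2 (0.0116) and missed it without control 1 (0.0784) or control 2 (0.0827). The gene lies at chr1:70205682-70252018 (hg38).

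SRSF3, the smallest SR protein, which also takes part in mRNA export, had 14.3 and 14.1 FPKM in the biotin libraries, against 27.1 and 25.0 FPKM in the controls. The replicates of each group lay close together and the groups were far apart. It averaged 14.2 ± 0.172 FPKM with biotin and 26.1 ± 1.49 FPKM in controls (SD, n = 2 each), a ratio of 0.544. Its log2 fold change was -0.83 ± 0.17 with a limma adjusted p of 0.0203, and 0.0811 to 0.105 when 1 library was left out. The gene lies at chr6:36594313-36604467 (hg38).

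Of the 11 SRSF genes tested, the other 9 did not pass. The 1 that rose and the 1 that fell were 9.09% each, against 13.1% and 9.33% of all genes. SRSF9 came closest, with 46.1 and 50.1 FPKM with biotin and 22.0 and 36.1 FPKM in controls (log2 fold change 0.75 ± 0.26, limma adjusted p = 0.0882). Its fold change was 0.40 without control 1. SRSF2, a founding SR protein found in nuclear speckles and the most abundant of these genes in FPKM, had 91.0 and 77.8 FPKM with biotin and 90.7 and 115.3 FPKM in controls, which overlapped (-0.28 ± 0.22, limma adjusted p = 0.382). SRSF1, the prototype of the family, had 19.4 and 20.3 FPKM with biotin and 19.2 and 19.4 FPKM in controls. SRSF members thus covered both directions, with a median of 0.04 that turned to -0.04 under upper-quartile and -0.08 under quantile scaling.

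The TRA2 genes encode enhancer-binding proteins related to Transformer-2 of Drosophila. TRA2A had 3.73 and 3.46 FPKM with biotin and 4.03 and 3.91 FPKM in controls. TRA2B had 5.06 and 7.38 FPKM with biotin and 7.91 and 5.19 FPKM in controls, and its replicates differed more than its groups. Neither passed, at log2 fold changes of -0.11 ± 0.14 and -0.06 ± 0.25.

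In the U2 snRNP, 3 of 9 SF3A and SF3B genes fell (33.3%) and none rose in limma, against 9.33% and 13.1% of all genes. At an unadjusted limma p below 0.05, 0 were higher and 4 lower, against 1942 and 1973 of all 9940 genes. SF3B6, the small subunit that lies next to the branch-point adenosine, had 28.0 and 16.7 FPKM in the biotin libraries, against 44.7 and 63.2 FPKM in the controls. SF3B5, another small SF3B subunit, had 66.7 and 32.7 FPKM with biotin, against 120.3 and 102.3 FPKM in controls. In both genes biotin 2 was the lowest library and the groups did not overlap. The means ± SD were 22.4 ± 7.99 FPKM in the biotin group and 54.0 ± 13.1 FPKM in controls for SF3B6, and 49.7 ± 24.0 FPKM in the biotin group and 111.3 ± 12.7 FPKM in controls for SF3B5 (n = 2 each).

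The log2 fold changes were -1.26 ± 0.30 for SF3B6 (limma adjusted p = 0.0323) and -1.23 ± 0.34 for SF3B5 (limma adjusted p = 0.0497). Each passed without biotin 1 (adjusted p = 0.0389 for SF3B6 and 0.0231 for SF3B5) and missed the threshold without any other library, with adjusted p up to 0.172 and 0.209. For SF3B5 the fold change itself was -1.73 without biotin 1 and -0.73 without biotin 2. SF3A2, a subunit of the SF3A trimer, had 5.84 and 6.12 FPKM with biotin, against 10.4 and 9.60 FPKM in controls. It averaged 5.98 ± 0.194 FPKM in the biotin group and 10.0 ± 0.563 FPKM in controls (SD, n = 2 each), and its log2 fold change was -0.66 ± 0.15 (limma adjusted p = 0.0298, and 0.104 to 0.126 with 1 library left out).

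The remaining subunits did not pass. SF3B1, the largest SF3B subunit and the one most often mutated in cancer, had 16.8 and 15.1 FPKM with biotin and 17.0 and 21.2 FPKM in controls. SF3B2 had 4.32 and 4.15 FPKM with biotin, against 8.32 and 5.91 FPKM in controls (log2 fold change -0.62 ± 0.19, limma adjusted p = 0.0599, and -0.40 without control 1). SF3B3 had 22.1 and 23.8 FPKM with biotin and 18.1 and 21.0 FPKM in controls, on the other side of 0 at 0.23 ± 0.18. SF3B4 had 14.4 and 20.0 FPKM with biotin and 14.3 and 18.6 FPKM in controls, which overlapped (0.05 ± 0.23). SF3A3 had 3.62 and 3.57 FPKM with biotin and 3.56 and 3.25 FPKM in controls, and SF3A1 had 2.45 and 1.88 FPKM with biotin and 3.43 and 2.13 FPKM in controls. Outside the naming rule and after values were seen, SF3B2 is named for its unadjusted p, and SF3B3 and SF3A1 for a miR-26a seed match described further on. Also outside the rule, SF3B1, SRSF1 and HNRNPA1 are named for their known roles, and SF3B4 to complete the subunits.

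Over all genes, transcript length moved with the calls. SF3B5 (737 nt) and SF3B6 (771 nt) were the only tested splicing factors whose leading transcript, the one of highest mean FPKM, was at most 1000 nt long. Among all 838 tested genes of that length 31.6% fell, 7.28% rose and the median log2 fold change was -0.49. Among the 3073 genes above 4000 nt 4.26% fell, 15.6% rose and the median was 0.01, and none of the 11 splicing factors in that class passed. In the classes above 1000 and up to 2000 nt and above 2000 and up to 4000 nt, 1 of 9 and 2 of 21 splicing factors fell, against 13.1% and 6.39% of all genes. In the same classes 1 of 9 and 1 of 21 rose, against 11.2% and 13.6% of all genes. The part of length in the fall of SF3B5 and SF3B6 was not tested.

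U2AF2, the large U2AF subunit that binds the polypyrimidine tract, had 18.9 and 19.6 FPKM with biotin and 15.4 and 22.4 FPKM in controls, and the groups overlapped (log2 fold change 0.05 ± 0.22, limma adjusted p = 0.885). U2AF1, its partner that reads the AG of the 3′ splice site, was listed at 0 in all 4 libraries. The deposited rows place each U2AF1 transcript at 2 positions of chromosome 21 (hg38), chr21:6484623-6499256 and chr21:43092956-43107578. Of the 267 coding accessions listed at more than 1 chromosomal position, 242 (90.6%) were at 0 in all libraries, against 14080 of the 35511 (39.6%) with a single position. The part of the double placement in the 0 of U2AF1 was not tested, and its level is not known from these tables.

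The other 5 genes below the filter were listed at low values in both groups. SRSF12 had 0.744 and 0.598 FPKM with biotin and 0.601 and 0.829 FPKM in controls. The HNRNPA1 and HNRNPC relatives HNRNPA1L2 and HNRNPCL1 had 0.344 to 0.348 and 0.203 to 0.288 FPKM with biotin and 0.341 to 0.356 and 0.366 to 0.743 FPKM in controls. HNRNPCL2 and HNRNPCL3 were listed at 0 in all libraries. Like U2AF1, HNRNPCL3 is listed at more than 1 chromosomal position, so its level is not known either. Such similar relatives share sequence, so reads could have been assigned to either copy. HNRNPA1L3 and HNRNPCL4 were not analysed here.

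**Figure D2:**
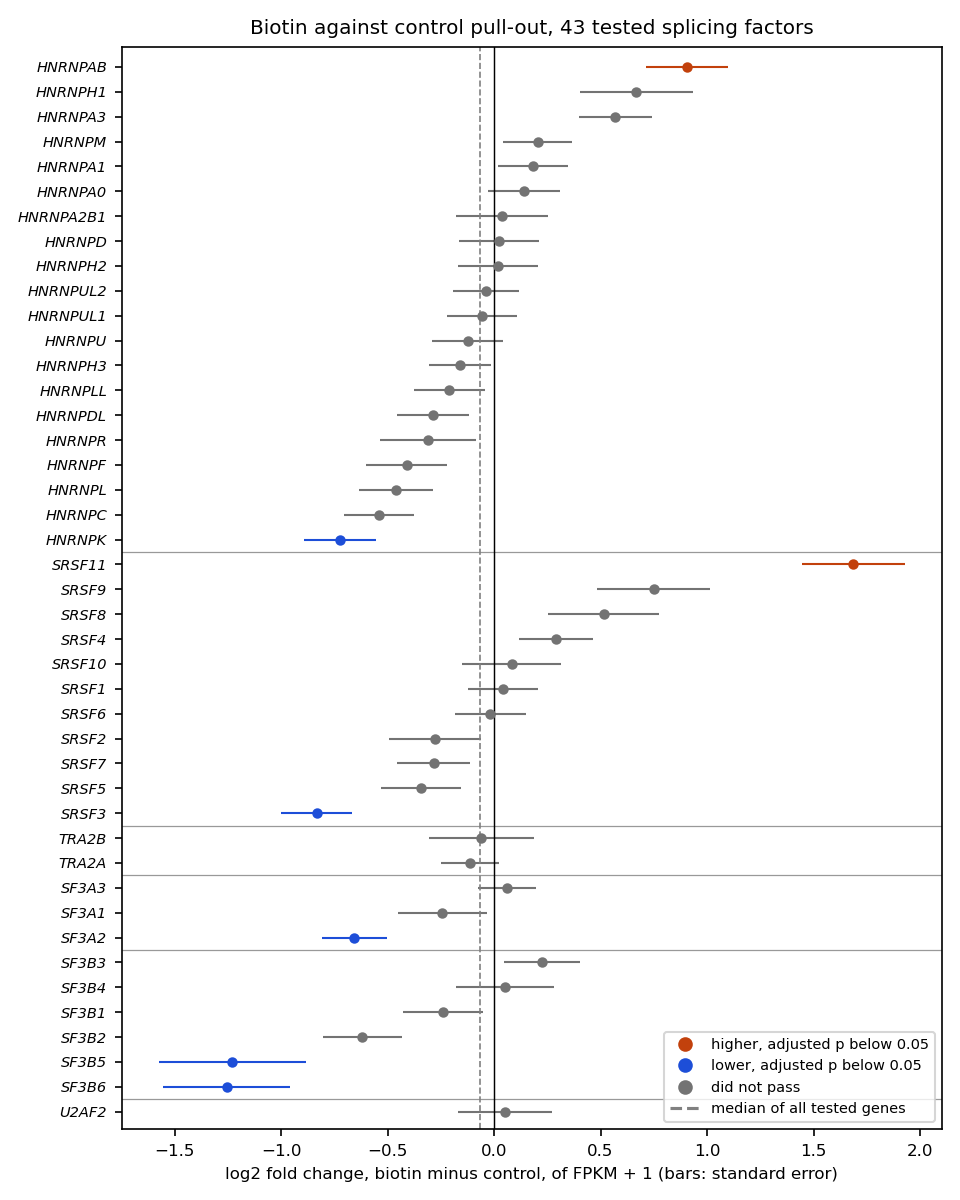
Log2 fold change of gene FPKM + 1, biotin minus control, of the 43 tested splicing factors, with the standard error from limma as bars and genes past the threshold marked. SRSF11 (1.69) and HNRNPAB (0.91) lie at the high end, SF3B6 (-1.26) and SF3B5 (-1.23) at the low end, and 26 genes lie within 0.3 of 0.

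At single transcripts, the 49 genes had 109 rows for 103 accessions, and 32 genes had several. Of these rows 68 passed the filter, 1 rose (1.47%, against 2.8% of 12006 transcripts) and 2 fell (2.94%, against 1.18%). All 3 were HNRNPF transcripts. Of the 68 rows, 2 were at 0 in both biotin libraries and 2 at 0 in both controls, and the 3 called are among these. They passed the filter only through the group where they are high, and the group at 0 adds no spread. Their adjusted p therefore gives no support for a difference beyond the listed values. NM_001098206 had 34.5 and 27.4 FPKM in the biotin libraries and was listed at 0 in both controls (limma adjusted p = 0.0198). NM_001098208 was listed at 0 in both biotin libraries and had 8.99 and 7.89 FPKM in the controls (limma adjusted p = 0.0221), and NM_004966 was at 0 in both biotin libraries and had 10.4 and 14.7 FPKM in the controls (limma adjusted p = 0.0239).

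Another HNRNPF transcript, NM_001098204, had 0 and 12.7 FPKM with biotin and 41.1 and 46.6 FPKM in controls and did not pass (limma adjusted p = 0.232). The 6 HNRNPF transcripts share 1 coding sequence, and their deposited lengths are 2632 to 2755 nt, so they differ in their untranslated parts. Reads of 50 bases that lie in the shared part fit every one of them, and the summed HNRNPF level did not pass. With any 1 library left out limma called 0 of the 12006 transcripts, while 4 to 12 splicing factor transcripts were higher and 4 to 13 lower at an unadjusted p below 0.05.

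**Figure D3:**
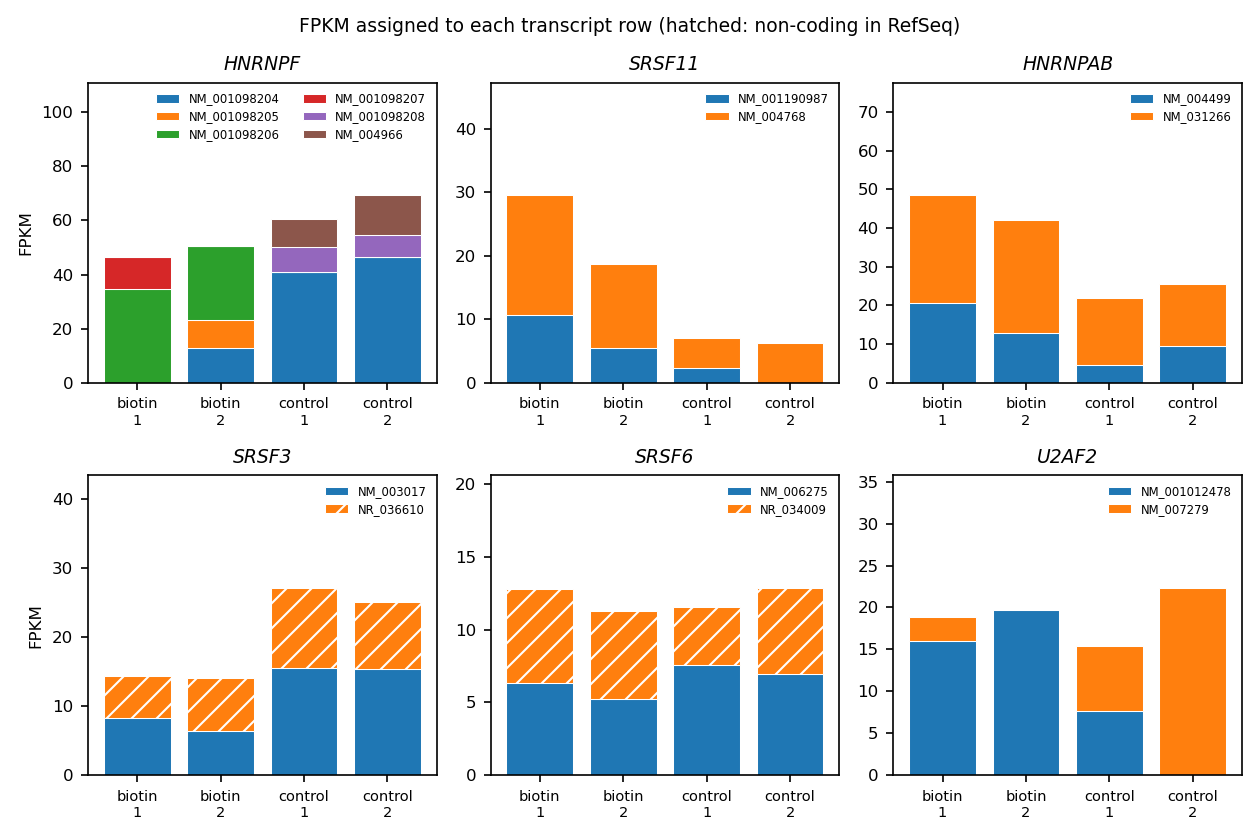
FPKM of the single transcripts of 6 splicing factor genes, stacked to the gene sum in the 2 biotin and the 2 control libraries, with non-coding transcripts hatched. In HNRNPF the transcript at 34.5 and 27.4 FPKM with biotin is at 0 in both controls, while the gene sum differs far less between the groups.

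In SRSF11 and HNRNPAB both main transcripts were higher with biotin. For SRSF11, NM_004768 had 18.8 and 13.3 FPKM with biotin and 4.71 and 6.22 FPKM in controls, and NM_001190987 had 10.7 and 5.40 FPKM with biotin and 2.34 and 0 FPKM in controls. For HNRNPAB, NM_031266 had 27.8 and 29.2 FPKM with biotin and 17.4 and 15.9 FPKM in controls, and NM_004499 had 20.6 and 12.8 FPKM with biotin and 4.51 and 9.52 FPKM in controls. None of these passed singly. In U2AF2, whose sum did not pass, the transcripts lay on opposite sides: NM_001012478 had 16.0 and 19.6 FPKM with biotin and 7.69 and 0 FPKM in controls, while NM_007279 had 2.90 and 0 FPKM with biotin and 7.69 and 22.4 FPKM in controls.

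Several SRSF genes have a non-coding transcript in RefSeq beside the coding one. In SRSF3 the coding NM_003017 had 8.23 and 6.43 FPKM with biotin and 15.6 and 15.4 FPKM in controls (log2 fold change -0.99 ± 0.17, limma adjusted p = 0.0778), and the non-coding NR_036610 had 6.07 and 7.63 FPKM with biotin and 11.6 and 9.64 FPKM in controls. Both were lower with biotin. The non-coding form made up 42.5% and 54.3% of SRSF3 FPKM in the biotin libraries and 42.6% and 38.5% in the controls. In SRSF6 the share was 50.5% and 53.9% with biotin and 34.7% and 46.2% in controls, and in SRSF10 it was 39.0% and 28.5% with biotin and 39.0% and 39.4% in controls. In SRSF2 it was 21.8% and 0% with biotin and 22.0% and 24.1% in controls. These shares rest on how the authors' software divided reads between overlapping transcripts, and no test was made of them.

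A match to the miR-26a seed, the letters TACTTGA on the sense strand, was looked for in the 3′ UTR of each gene's leading transcript in GENCODE 29. Where that transcript was not found there, as for SRSF11 and HNRNPA3, the longest 3′ UTR of the gene was searched. The seed match was found in 6 of the 43 splicing factors (14.0%), against 1133 of 9439 tested coding genes (12.0%). In the longest 3′ UTR of every gene it was found in 7 (16.3%, against 14.3%), with HNRNPA2B1 added. The sites are shown because they cover SRSF11 and SRSF3, which moved in opposite directions. Each window gives 15 bases before the match, the match in capitals and 1 base after it, 5′ to 3′ on the strand of the gene, in GRCh38. The matches lie at chr1:70251750-70251756 (plus) for SRSF11, chr6:36604263-36604269 (plus) for SRSF3, chr20:43463447-43463453 (plus) for SRSF6, chr22:30332142-30332148 (minus) for SF3A1, chr16:70573362-70573368 (plus) for SF3B3 and chr5:137749898-137749904 (minus) for HNRNPA0.
SRSF11: aaaataagacaaatcTACTTGAt
SRSF3: agtcactgttactaaTACTTGAt
SRSF6: gattcccctttctttTACTTGAt
SF3A1: ttatgttaggatataTACTTGAa
SF3B3: ggaactcagcgtagaTACTTGAg
HNRNPA0: ctaaaagattgaggaTACTTGAg

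Of the 6 genes with a match, SRSF11 rose, SRSF3 fell and 4 did not pass. Also named for the match after values were seen, SRSF6 had 12.8 and 11.3 FPKM with biotin and 11.5 and 12.9 FPKM in controls, and HNRNPA0 had 10.2 and 12.3 FPKM with biotin and 9.80 and 10.4 FPKM in controls. The median log2 fold change was 0.06 over the 6 with a match and -0.06 over the 37 without. This order held with the longest 3′ UTR of every gene, with medians of 0.04 with and -0.09 without a match. It turned round for the 6-letter core described next, with medians of -0.09 with and -0.04 without it. For the 8-letter form the only gene with a match, SF3A1, had -0.24, against a median of -0.05 without. Among all genes searched, 14.5% of those with a match and 13.0% of those without rose. HNRNPAB, HNRNPK, SF3A2, SF3B5 and SF3B6 had no such match in the UTR searched. For SRSF11 the UTR was that of another transcript than the deposited leading one, and for HNRNPA0 the match lies outside the span of the deposited row. The 8-letter form TACTTGAA, which contains the 7-letter one, was found in SF3A1 only (2.33%, against 5.45% of all genes), and the 6-letter core ACTTGA in 12 (27.9%, against 34.6%).

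Other splicing genes were counted from lists by function. Of the 7 hnRNP proteins with other gene names 1 rose (14.3%, against 13.1% of all genes) and, in limma, none fell (against 9.33%). At an unadjusted limma p below 0.05, 1 was higher and 4 were lower, against 1942 and 1973 of all 9940 genes. The one that rose was PTBP1, the polypyrimidine tract-binding repressor, with 343 and 299 FPKM in the biotin libraries, against 92.0 and 138 FPKM in the controls. Its log2 fold change was 1.50 ± 0.25 with a limma adjusted p of 0.0123, and it passed in 1 of 4 fits with a library left out. The median of the list was -0.46, so PTBP1 lay apart from the others in it. Its paralog PTBP3 also rose, with 27.0 and 31.4 FPKM with biotin, against 14.0 and 15.2 FPKM in controls (0.95 ± 0.18, limma adjusted p = 0.0171).

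Of 43 tested spliceosome core proteins 6 rose (14.0%, against 13.1% of all genes) and 7 fell (16.3%, against 9.33%), with a median log2 fold change of -0.29 that was -0.13 without biotin 2. PRPF4, a protein of the U4/U6 particle, had 33.9 and 32.8 FPKM with biotin, against 10.6 and 11.0 FPKM in controls (log2 fold change 1.55 ± 0.17, limma adjusted p = 0.00285), and passed in 3 of 4 fits with a library left out. SNRPA, a protein of the U1 snRNP that binds its RNA, had 69.5 and 58.7 FPKM with biotin, against 30.9 and 31.4 FPKM in controls (1.01 ± 0.19, limma adjusted p = 0.0166). DDX23, DHX15, LSM8 and USP39 also rose. The Sm ring proteins SNRPG and SNRPD2 fell: SNRPG had 1.78 and 2.79 FPKM with biotin, against 13.1 and 7.42 FPKM in controls (-1.75 ± 0.28, limma adjusted p = 0.0107), and SNRPD2 had 19.7 and 22.5 FPKM with biotin, against 46.1 and 45.4 FPKM in controls (-1.08 ± 0.18, limma adjusted p = 0.0114). Their leading transcripts, at 579 and 753 nt, are short like those of SF3B5 and SF3B6. SNRPB2, SNRPE, SNRNP27, BCAS2 and LSM6 fell as well.

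Of 32 other splicing regulators tested 2 rose (6.25%, against 13.1% of all genes) and 6 fell (18.8%, against 9.33%), with a median log2 fold change of -0.19. SON, a speckle protein, and PTBP3 rose. MBNL1, which reads YGCY motifs, had 15.5 and 18.0 FPKM with biotin, against 26.8 and 31.7 FPKM in controls (-0.77 ± 0.19, limma adjusted p = 0.0346). ELAVL1, the AU-rich element binder HuR, had 8.29 and 7.53 FPKM with biotin, against 12.5 and 15.3 FPKM in controls (-0.74 ± 0.18, limma adjusted p = 0.0323). U2SURP, an SR-related protein of the U2 snRNP, had 5.03 and 4.84 FPKM with biotin, against 8.87 and 9.37 FPKM in controls (-0.77 ± 0.15, limma adjusted p = 0.0176). QKI, TIAL1 and MATR3 fell too, and no gene of the list passed in any fit with 1 library left out.

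None of the 9 tested kinases and import receptors of SR proteins passed in limma (0 higher and 2 lower at an unadjusted p below 0.05), with a median log2 fold change of -0.09. None of the 8 tested nonsense-mediated decay factors passed in limma either (2 higher and 0 lower at an unadjusted p below 0.05), with a median of 0.09. Over all 9940 tested genes, limma gave 1942 higher and 1973 lower at an unadjusted p below 0.05. At the adjusted threshold 13.1% of all genes rose and 9.33% fell. Under median-of-ratios scaling 1 of 8 decay factors rose, where 1483 of 9940 genes did. At a mean FPKM of at least 5, 1 of 6 rose, where 907 of 4550 genes did. In the upper-quartile and quantile fits 11 core proteins and 4 hnRNP proteins with other names fell.

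**Figure D4:**
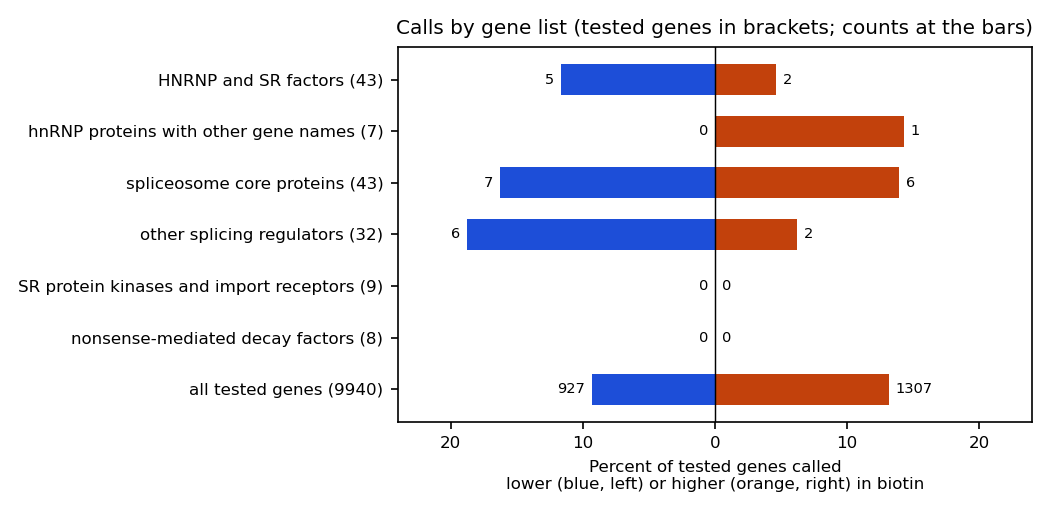
Percent of tested genes that fell (blue, to the left) or rose (orange, to the right) in the biotin group, for the splicing factors, 5 lists of related genes and all tested genes, with the counts at the bars. The splicing factors show 5 fallen and 2 risen of 43, and all genes 927 fallen and 1307 risen of 9940.

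The 7 called splicing factors differed in how firmly they held. SRSF11 passed in 13 of the 15 alternative fits, all but those without control 1 or control 2. SRSF3 passed in each fit that kept all 4 libraries and in none that left 1 out. With no filter on low values HNRNPAB (adjusted p = 0.055), HNRNPK (0.0518), SF3A2 (0.0606) and SF3B6 (0.105) missed the threshold, and SF3B6 also missed it with short RNA genes kept (0.0606). SF3B5, at an adjusted p of 0.0497, was nearest the threshold and also missed it with a pseudocount of 0.1 (0.0559), median-of-ratios scaling (0.0648), coding transcripts only (0.0592), short RNA genes kept (0.0871) and no filter (0.142). Estimated reads behind the called genes were at least 169 in every library, and at least 84 behind any tested splicing factor.

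**Figure D5:**
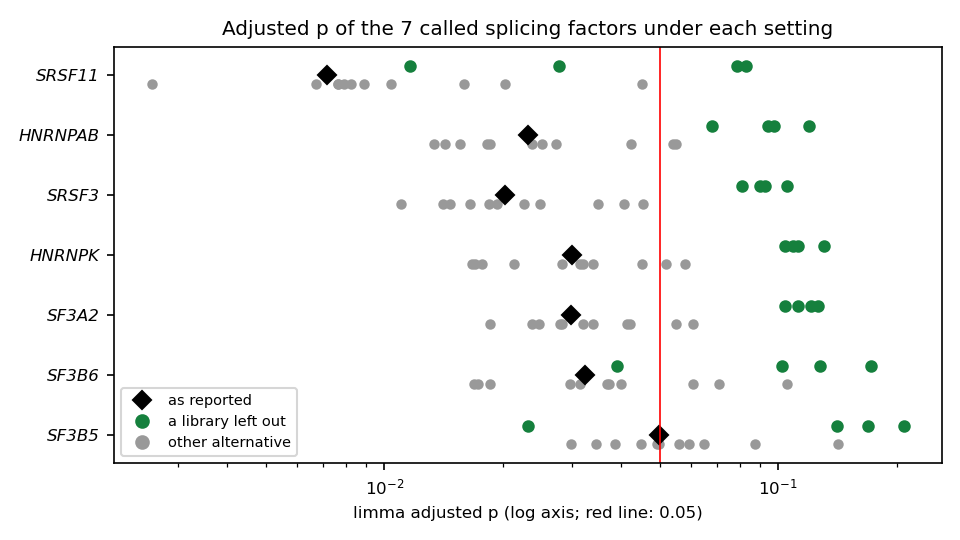
Limma adjusted p of the 7 called splicing factors under each of 16 settings, on a log axis, with the threshold of 0.05 as a red line and fits without 1 library in green. SRSF11 lies below it except without control 1 or control 2, and the other 6 lie above it in most fits with 1 library left out.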

How the data were processed

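Stranded total RNA libraries were sequenced in single 50-base reads, per the labels' protocols. The build was hg38, and the tools named in the submitters' processing notes are TopHat2 2.0.9 and Cufflinks 2.1.1, with Cuffdiff, cutadapt and FastQC 0.10.1 beside them. No settings, annotation or strand option were given in the sources used here, so reads of overlapping or antisense genes could have gone to either gene. The authors deposited FPKM for 53209 transcript rows per library, summed here per gene after RefSeq naming (98.7% of 46699 accessions). Per the file headers the tables also hold coverage, used here only to estimate depth, and transcript length. Genes of short RNAs and 22 genes with a failed or excess-data row were left out.

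limma 3.58.1 in R 4.3.3 (lmFit, eBayes with trend, 2 residual degrees of freedom) was fitted to log2(FPKM + 1), with FPKM of at least 1 in 2 or more libraries. The smallest p of an exact test is 0.333. Data were simulated for the 9940 genes of this comparison. The fit recovered 50 of 50 genes changed by -2 on the log2 scale, 47 of 50 by -1, 49 of 50 by 1 and 50 of 50 by 2, with 6 false calls. The simulated spread followed a smooth trend with level, without further differences in spread between genes of similar level. Changes were placed only in genes with a mean log2(FPKM + 1) above 2. These counts can therefore overstate how well the fit does on the real data. Alternatives changed the pseudocount, filter, scaling, variance trend, rows summed, short RNA genes, replicate block and libraries. Named are the called genes, the 5 largest changes each way and the 2 highest genes of each family, and the largest called changes of each list. Most genes named outside this rule are marked as such. SRSF10 and the called list genes given without values are outside it too. The genes and lists were chosen with earlier results of these data known. Nothing shows that libraries of the same number belong together. The p-values rest on the spread between 2 libraries a group, pooled by limma with that of other genes (4.2 prior degrees of freedom). One further marker list is not reported here.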

Additional observations from a re-analysis of the deposited data

How the results depend on the processing

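Of the 2 splicing factors higher and 5 lower with biotin, 1 and 1 were called with no filter on low values and 1 and 2 with the replicate block. With short RNA genes kept 3 were lower, and with 1 library left out 0 to 1 were higher and 0 to 2 lower. Under median-of-ratios scaling 3 were higher and 4 lower, and under upper-quartile and quantile scaling 2 and 7. Whether same-numbered libraries share an experiment is not known, so the block is not taken as a paired design. Deviations of same-numbered libraries correlated at 0.002 over all genes and -0.07 over the splicing factors, which cannot settle this. Over all genes, 1307 higher and 927 lower became 653 and 230 with no filter, 1077 and 534 with the block, 1111 and 656 with short RNA genes kept, and 185 to 680 and 32 to 224 with 1 library left out.

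The median log2 fold change of the splicing factors (-0.06) was -0.13 under upper-quartile, 0.005 under median-of-ratios and -0.11 under quantile scaling, and -0.17 to -0.009 with 1 library left out. The 1 transcript higher became 2 at a mean FPKM of at least 5. With no filter, with the block and with any library left out, 0 were higher and 0 lower. The 6 seed matches became 12 for the 6-base site, 1 for the 8-base site and 7 in the longest 3′ UTR of every gene.

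Not every splicing factor was followed singly through the alternatives, so signs may have reversed in others too. Among those followed that did not pass, signs reversed for SF3A3 under upper-quartile scaling (-0.0055) and SF3A1 with 1 library left out (-0.49 to 0.0076). TRA2B reversed under median-of-ratios scaling (0.0038) and with 1 library left out (-0.32 to 0.20). U2AF2 reversed under upper-quartile (-0.029) and quantile scaling (-0.068) and with 1 library left out (-0.20 to 0.31). SRSF1 reversed under upper-quartile (-0.039) and quantile scaling (-0.077), and SRSF6 under median-of-ratios scaling (0.053) and with 1 library left out (-0.10 to 0.066). The causes were not tested. The fits of the 5 gene lists and the alternatives for HNRNPA1, SRSF1 and SF3B1 were added after seeing the data. With the block 4 core proteins rose and 4 fell, and 1 other regulator rose and 1 fell. With 1 library left out, core proteins gave 0 to 3 higher and 0 to 2 lower. With the block HNRNPAB (adjusted p = 0.0542), HNRNPK (0.0579), SF3A2 (0.0551) and SF3B6 (0.0709) lost their calls.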

Other observations

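The symbol rule left out 5 non-coding HNRNP symbols. The read-through HNRNPUL2-BSCL2 had 2.34 and 2.54 FPKM in the biotin libraries and 2.64 and 1.92 FPKM in the controls, which overlapped (limma adjusted p = 0.758). It contains HNRNPUL2, so its reads and those of HNRNPUL2 cannot be told apart here. The pseudogenes HNRNPA1P10, HNRNPA1P33, HNRNPA3P1 and HNRNPKP3 were below the level tested in every library. HNRNPA1P10 had 0.0802 and 0.0257 FPKM with biotin and 0 in both controls.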
